A study of Mus musculus with 2 samples.

Results

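The cell cycle and DNA replication genes are 41 genes that dividing cells use to copy their DNA, condense and separate their chromosomes, and split. They were chosen by symbol from a list of known cell cycle genes and not by a cut on their values, but with earlier results of these data known. All 41 were found among the 32285 genes of the files. They were measured in whole mouse uterus by droplet single-cell RNA sequencing, in 2 libraries of 1 pool each. The library labelled control came from Prickle1 f/f mice, which carry Prickle1 alleles flanked by recombination sites, and the library labelled cKO, for conditional knockout, from Prickle1 f/f MiC mice. What MiC stands for, and in which cells recombination takes place, is not in the labels, and their genotype field gives wild-type in each case. Each library pooled uteri of 3 female C57BL/6J mice aged 6 months, digested in collagenase for 5 hours. Mice of a group were pooled, so there is no replicate error, and no test between the groups is given. Intervals are 95% and cover counting error only. Those of levels and ratios treat each transcript count as independent, so they leave out the spread between cells and are too narrow where a few cells hold most counts.

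Cells enter division through G1, copy their genome in S phase, and segregate it in mitosis. MCM proteins form the helicase that opens DNA for replication, PCNA is the clamp that holds the polymerase on it, and thymidylate synthase and ribonucleotide reductase supply nucleotides. Cyclins A and B with the kinase CDK1 drive mitosis, in which centromere proteins, kinesins and the Aurora and Polo kinases build the spindle. The anaphase-promoting complex then ends mitosis by marking cyclins for destruction. Transcripts of the mitotic group rise only as cells near division, while many replication transcripts are also made at lower levels outside S phase. In the uterus, epithelial and stromal proliferation follows the hormone cycle, and the labels give no cycle stage for these mice.

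The library labelled control held 3490 cells with a median of 4953 UMIs (unique molecular identifiers, each counting 1 captured transcript), and the library labelled cKO held 3586 cells with a median of 4903 UMIs. Cells fell into 25 clusters, which were named by marker genes, and the tissue label was borne out by smooth muscle-like, fibroblast-like and epithelium-like clusters with 6 of 7, 6 of 6 and 7 of 7 of their markers at best. No cluster was named vascular endothelium or pericyte. Comparisons were made in the 6 classes that reached 100 cells in each library: epithelium-like (1312 cells in control and 109 in cKO), T or NK cell-like (321 and 713), macrophage or monocyte-like (313 and 227), dendritic cell-like (159 and 209), fibroblast-like (864 and 1367) and smooth muscle-like (313 and 680). Single clusters of these classes were also compared, some of them with under 100 cells in a library. Names were rebuilt here. Some rest on the minimum of 3 markers, among them dendritic cell-like clusters 4 and 5 (3 of 7) and T or NK cell-like cluster 13 (3 of 9). The NK-like name of cluster 13 had 4 markers. Among the leading genes of named clusters were interferon genes in dendritic cell-like cluster 4, Cxcl5, Ptx3 and Il6 in fibroblast-like cluster 9, and Hspa1a and Hspa1b in fibroblast-like cluster 17. In clusters 0, 2, 4, 10 and 22 a single library supplied over 90% of the cells. The libraries shared 6 cell barcodes. Prickle1, the targeted gene, was no lower under the label cKO, at 96 UMIs (2.56 CPM, counts per 1000000 UMIs) in control and 265 UMIs (9.03 CPM) in cKO over all cells, and at 14.8 and 24.4 CPM in smooth muscle-like cells. Each direction below therefore rests on the labels alone. Interferon-response genes differed widely between the libraries in every class, so their summed level stands beside the results of each class, and their part in the results was not tested.

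The 41 genes were divided into 26 mitotic members, 13 S-phase members, and Stmn1 and Hmgb2, which belong to neither. Levels are UMIs over all cells of a library, counted once per transcript end and therefore not divided by transcript length. Over all cells the mixture of cell types differed between the libraries, so these first values describe the libraries and not a cell type. Deep cells also weigh most in them. Among epithelium-like cells, 4 of 1312 in control and 4 of 109 in cKO held 50% of the class's mitotic UMIs. The control cell with the most held 704 of 3564, at a depth of 89325 UMIs against a class median of 4370.5. A few deep cells can therefore set the direction of a single gene in these totals.

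Among the proliferation markers, Hmgb2 (ENSMUSG00000054717), a chromatin protein, had the most UMIs of any member over both libraries together, 9097 in control and 6439 in cKO, where Pcna had more. Mki67 (ENSMUSG00000031004), which coats mitotic chromosomes and is the usual marker of dividing cells, had 630 UMIs (16.8 CPM) in control and 260 (8.86 CPM) in cKO. Top2a (ENSMUSG00000020914), the topoisomerase that untangles sister chromatids, had 846 (22.5 CPM) and 307 (10.5 CPM). Of the cyclins and their kinase, Ccnb2 had the most, 172 and 83 UMIs. Cdk1 (ENSMUSG00000019942) had 158 and 78 UMIs, Ccna2 146 and 69, and Ccnb1 (ENSMUSG00000041431) 100 and 58. All 4 were lower in cKO, both in UMIs and in CPM, with overlapping counting intervals of CPM for Ccnb1.

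The degradation genes were led by Ube2c, the enzyme that carries ubiquitin for the anaphase-promoting complex, at 499 and 142 UMIs. Cdc20, which activates that complex, had 159 and 68 and Cdca3 119 and 38. Among mitotic kinases and checkpoint genes, Aurka had 107 and 62 UMIs, Bub1b 115 and 49, Plk1 105 and 34, Bub1 73 and 14, and Aurkb 68 and 25. Birc5 (survivin) and Cdca8 (borealin), the partners of Aurora B in the chromosomal passenger complex, had 232 and 119, and 200 and 77. Each of these 10 genes was lower in cKO over all cells, in totals whose direction a few deep cells can set. For Aurka the counting intervals of CPM overlapped. The centromere genes were not alike. Cenpa (ENSMUSG00000029177), the histone variant that marks the centromere, had 1051 UMIs (28.0 CPM) in control and 1218 (41.5 CPM) in cKO and was the only mitotic member higher in cKO. Cenpe, a kinetochore motor, had 274 and 60, and Cenpf, a kinetochore protein, 320 and 103.

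Of the spindle and cytokinesis genes, Stmn1 (stathmin, which destabilizes microtubules) led with 1571 and 1166 UMIs. Kif23, a motor of the central spindle, had 479 and 237, and its partner Racgap1 had 245 and 134. Nusap1 had 317 and 73, Tpx2, which activates Aurora A, 258 and 103, the spindle motor Kif11 195 and 82, Hmmr 124 and 19, and Kif20a 82 and 41. All 8 had lower CPM in cKO, with overlapping counting intervals for Stmn1 and Kif20a.

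The replication genes went the other way. Of the helicase subunits, Mcm7 had the most, 773 UMIs (20.6 CPM) and 981 (33.4 CPM). Mcm6 (ENSMUSG00000026355) had 335 and 550 UMIs, Mcm5 (ENSMUSG00000005410) 212 and 349, Mcm3 415 and 526, Mcm4 317 and 428, and Mcm2 232 and 249, so that all 6 were higher in cKO. Pcna (ENSMUSG00000027342) had 4776 UMIs (127 CPM) in control and 6803 (232 CPM) in cKO. In nucleotide supply, Rrm1 had 526 and 593 UMIs, Rrm2 167 and 144, Tyms 230 and 155, and Tk1 41 and 57. The regulators E2f1, which switches on replication genes, and Uhrf1, which keeps DNA methylation through replication, had 84 and 102, and 188 and 125. Of the 13 S-phase members, Tyms and Uhrf1 had lower CPM in cKO and the others higher. For Tyms, Uhrf1, Rrm2 and Tk1 the counting intervals of the libraries overlapped.

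Mitotic and S-phase members differ in the promoter sequences they are known to carry, and 150 bases are shown for 8 of them: the markers and cyclin genes the values below turn on, and the S-phase members with the largest log2 ratios or the most UMIs. Promoter windows from 250 bases before to 50 after the annotated start came from RefSeq, build GRCm38.p6, which is the build named in the submitters' processing notes (mm10). They matched 35 of the 41 members. Each sequence runs from 120 bases before to 30 bases after the start, 5′ to 3′ on the gene's strand. Capitals mark matches on either strand to the cell cycle homology region (CHR, TTTGAA or TTCAAA), through which the DREAM complex is known to hold mitotic genes silent in resting cells, to the CCAAT box (CCAAT or ATTGG), bound by NF-Y, and to the E2F motif (TTGGCGC or the variant TTCGCGC or the variant TTCCCGC or the variant TTGCCGC, and their reverse complements). The mitotic members come first:
Mki67, chr7:135716350-135716499, minus strand: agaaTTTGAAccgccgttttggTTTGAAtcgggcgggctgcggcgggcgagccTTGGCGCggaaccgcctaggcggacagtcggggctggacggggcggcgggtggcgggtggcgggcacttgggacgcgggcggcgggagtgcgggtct
Top2a, chr11:99024160-99024309, minus strand: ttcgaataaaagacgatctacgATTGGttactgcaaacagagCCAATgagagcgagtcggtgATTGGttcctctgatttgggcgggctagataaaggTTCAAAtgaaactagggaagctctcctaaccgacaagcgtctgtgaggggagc
Cdk1, chr10:69352883-69353032, minus strand: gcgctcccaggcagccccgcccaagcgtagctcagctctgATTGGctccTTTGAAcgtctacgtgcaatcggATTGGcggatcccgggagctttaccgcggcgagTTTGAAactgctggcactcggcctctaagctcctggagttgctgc
Ccnb1, chr13:100786457-100786606, minus strand: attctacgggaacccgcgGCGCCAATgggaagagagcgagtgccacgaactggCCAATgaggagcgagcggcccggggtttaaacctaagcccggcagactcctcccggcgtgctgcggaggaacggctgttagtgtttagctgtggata
Cenpa, chr5:30666766-30666915, plus strand: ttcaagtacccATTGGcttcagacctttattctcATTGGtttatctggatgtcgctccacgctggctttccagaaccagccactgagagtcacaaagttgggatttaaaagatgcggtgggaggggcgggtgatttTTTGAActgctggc
The S-phase members follow:
Mcm5, chr8:75109389-75109538, plus strand: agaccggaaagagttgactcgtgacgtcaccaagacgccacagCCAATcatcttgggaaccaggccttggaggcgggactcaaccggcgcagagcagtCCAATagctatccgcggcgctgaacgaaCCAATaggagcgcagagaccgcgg
Mcm6, chr1:128359676-128359825, minus strand: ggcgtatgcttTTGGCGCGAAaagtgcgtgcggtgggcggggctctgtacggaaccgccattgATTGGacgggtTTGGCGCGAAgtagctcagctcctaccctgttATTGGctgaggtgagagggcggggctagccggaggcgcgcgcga
Pcna, chr2:132253151-132253300, minus strand: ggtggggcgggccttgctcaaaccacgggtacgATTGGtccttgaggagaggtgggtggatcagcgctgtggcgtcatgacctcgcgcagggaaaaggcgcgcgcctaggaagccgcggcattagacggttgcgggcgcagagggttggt

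In Ccnb1 the E2F match on the opposite strand overlaps the first CCAAT box, and in Mcm6 each E2F run is 2 overlapping matches, 1 on each strand. Mki67 and Cdk1 each showed 2 CHR matches and Top2a and Cenpa 1. The stretches of Ccnb1, Mcm5, Mcm6 and Pcna held none, which says only that these letters are not in those stretches. Over the full windows the CHR letters were present in 17 of 22 mitotic windows (77.3%), 1 of 14 S-phase windows (7.14%) and 17.9% of all 32851 windows of the table. E2F letters were present in 4 mitotic windows (18.2%), 9 S-phase windows (64.3%) and 9.57% of all windows. The CCAAT box was in 20 mitotic windows (90.9%), 11 S-phase windows (78.6%) and 37.4% of all windows. A match is a description and not a bound site.

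The 2 groups of members also differed in which cells held their UMIs. For each member, the share of its UMIs was taken that lay in cells with UMIs of at least 3 other mitotic members. In the mitotic group this share ran from 16.3% (Cenpa) to 96.6% (Bub1) with a median of 82.0%, and it was at least 50% for 24 of the 26. Hmmr was at 93.7%, Cdk1 at 89.4%, Top2a at 84.2% and Mki67 at 78.2%. The exceptions were Cenpa and Kif23 (33.0%). The S-phase group ran from 7.19% (Pcna) to 48.6% (Rrm2) with a median of 19.8%, Stmn1 was at 33.0% and Hmgb2 at 28.8%. Those cells held 8.55% of the UMIs of all genes for a member outside the mitotic group, so the Pcna share was no higher than that of an average transcript. Cells with more UMIs reach 3 other members more easily, and that part in the shares was not tested.

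**Figure D1:**
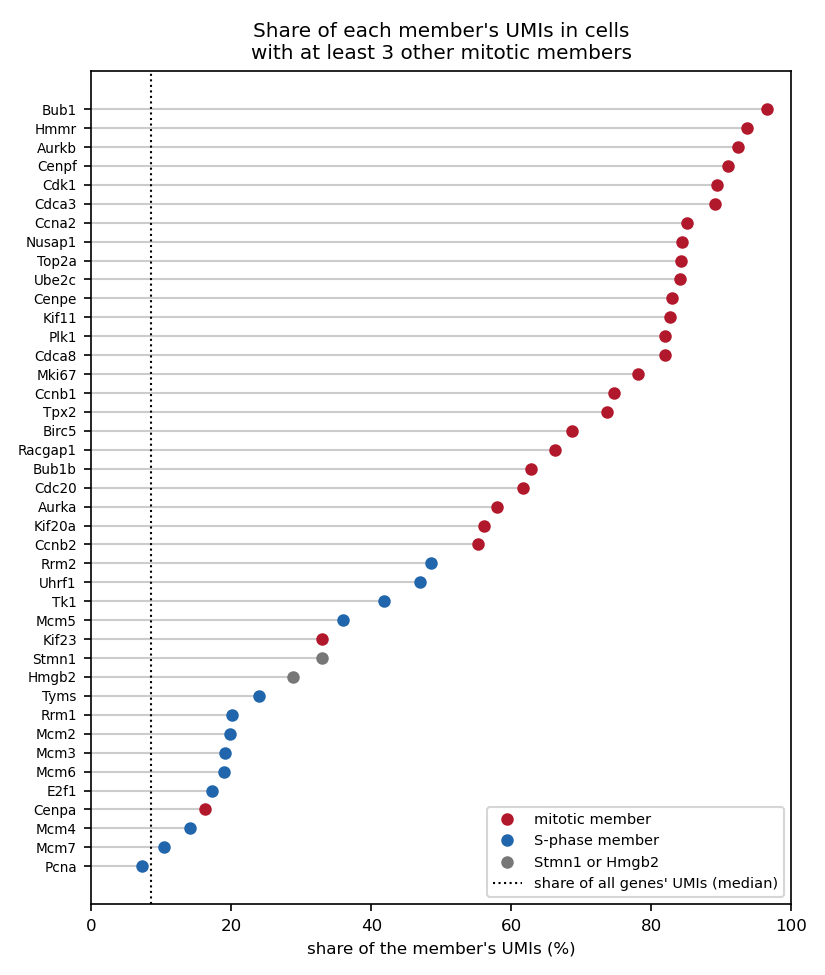
Share of each member's UMIs that lay in cells with UMIs of at least 3 other mitotic members, both libraries together. The x axis is in percent, each row is a member, and the dotted line is the median over members of the share of all genes' UMIs in such cells. Bub1 is highest at 96.6% and Pcna lowest at 7.19%, with Cenpa at 16.3% and Kif23 at 33.0% apart from the other mitotic members.

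The UMIs of Cenpa were spread over lymphoid and dendritic cells. Among T or NK cell-like cells, 160 of 321 cells (49.8%) in control and 338 of 713 (47.4%) in cKO had a Cenpa UMI. In gamma delta T-like cluster 11 it had 100 UMIs in control and 234 in cKO, where Mki67 had 1 and 3 and Top2a 1 and 1. In dendritic cell-like cells 41.5% and 40.7% of cells had a Cenpa UMI, against 3.01% and 2.93% of fibroblast-like cells at similar depths (medians of 10005 and 8210 UMIs against 9609 and 10162). In smooth muscle-like cells, at medians of 1899 and 2003.5 UMIs, the shares were 0.639% and 0.882%. Macrophage or monocyte-like cells had shares of 12.1% and 8.37% (medians of 7697 and 5802 UMIs) and epithelium-like cells 5.64% and 8.26%. Thinned counts of dividing cells below are therefore also given without Cenpa where that alters them, which was in T or NK cell-like cells and their clusters 11, 13 and 19. In the other classes the count was the same without it.

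To count dividing cells at equal depth, each cell was thinned at random to 1000 UMIs and called cycling if it then held UMIs of at least 2 different mitotic members. By this call 40 of 3490 cells (1.15%, 0.820 to 1.56) were cycling in control and 47 of 3586 (1.31%, 0.965 to 1.74) in cKO, a difference of 0.165 percentage points (-0.373 to 0.703). Without Cenpa the counts were 38 and 32. Without thinning, and asking for 3 members, 103 cells (2.95%) and 95 cells (2.65%) were called. The library totals thus did not differ beyond counting error. The called cells lay mostly in T or NK cell-like cells (13 in control and 22 in cKO), epithelium-like cells (12 and 16), the macrophage class (7 and 0) and fibroblast-like cells (2 and 6).

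**Figure D2:**
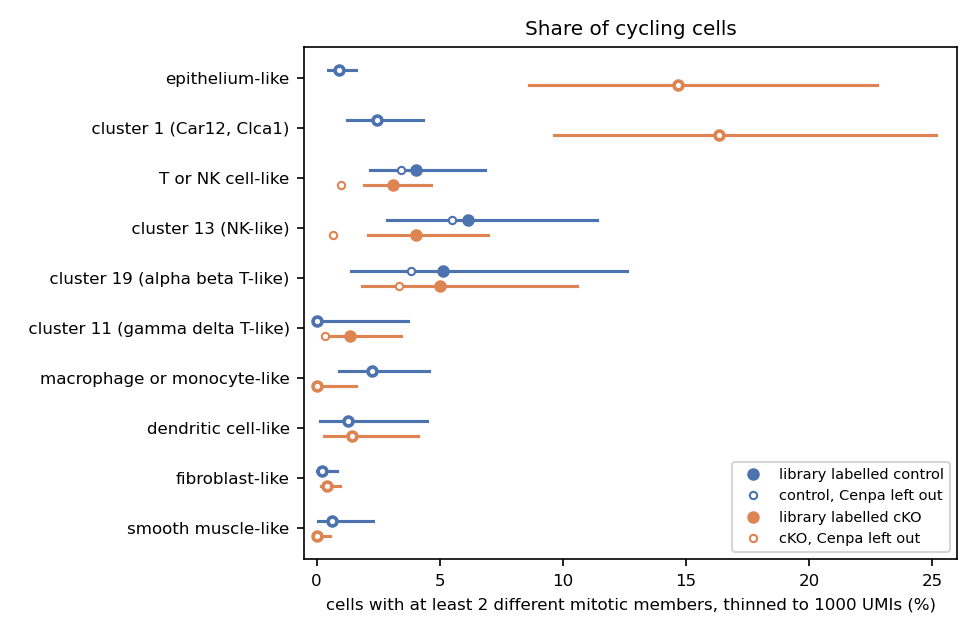
Share of cells called cycling in each class or cluster. The x axis is the percent of cells with at least 2 different mitotic members after thinning to 1000 UMIs, filled points are the share with its 95% counting interval (lines), and open points leave Cenpa out of the call. Epithelium-like cells of the library labelled cKO lie at 14.7% and those of control at 0.915%, and leaving out Cenpa moves the cKO point of cluster 13 from 4.04% to 0.673%.

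Epithelium-like cells made up 12 of the called cells in control (0.915% of the class, 0.473 to 1.59) and 16 in cKO (14.7%, 8.63 to 22.7), a difference of 13.8 percentage points (7.68 to 21.8). Most epithelium-like cells of control lay in clusters that cKO nearly lacked. Cluster 0 held 592 cells in control and 7 in cKO, and cluster 10 held 228 and 1, and neither held a called cell after thinning. Without thinning 17 of the 228 deep control cells of cluster 10 (7.46%) and 1 control cell of cluster 0 were called. In cluster 1, led by Car12 and Clca1 and present in both libraries, 11 of 452 cells (2.43%, 1.22 to 4.31) were called in control and 16 of 98 (16.3%, 9.63 to 25.2) in cKO, a difference of 13.9 points (6.94 to 22.8). Without thinning 23 cells (5.09%) and 30 cells (30.6%) of cluster 1 were called. Leaving out Cenpa changed none of these thinned counts.

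A UMI of Mki67 was found in 20 of the 452 cells of cluster 1 in control (4.42%, 2.72 to 6.75) and in 22 of the 98 in cKO (22.4%, 14.6 to 32.0), at medians of 3798.5 and 4078.5 UMIs. After thinning the shares were 1.55% and 8.16%. A UMI of Top2a was found in 4.87% and 26.5% of its cells, and of Cdk1 in 1.55% and 9.18%. In smooth muscle-like cells Mki67 had 0 UMIs in 313 and 680 cells. A count of 3 there would be shares of 0.958% and 0.441%, and the 95% upper limits are 1.17% and 0.541% of cells with a UMI, at medians of 1899 and 2003.5 UMIs, shallower than cluster 1.

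The summed level of the mitotic members in cluster 1 was nearly the same in both libraries, 623 CPM in control and 680 CPM in cKO (ratio 1.09, 0.992 to 1.20), although the share of cells differed. In control 3 cells held 50% of the mitotic UMIs, and 1 cell of 89325 UMIs held 27.0%. In cKO 4 cells did, and 1 cell of 84439 UMIs held 24.2%. With every cell thinned to 1000 UMIs, so that each cell weighs the same, the mitotic level was 197 CPM in control and 776 CPM in cKO. The called epithelium-like cells of control were deep, with a median of 32725 UMIs against 4346 in the other epithelium-like cells, while those of cKO had 4206.5 against 4075. With the 200 highest doublet scores removed, the called cells of cluster 1 were still 11, now of 440, and 16 of 98.

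S-phase members were higher in cKO in cluster 1 by either measure, at 192 CPM in control and 485 CPM in cKO (ratio 2.52, 2.23 to 2.85), and at 208 and 439 CPM after thinning. Mcm6 had 31 UMIs in control and 35 in cKO (7.41 and 44.5 CPM, ratio 6.01, 3.60 to 10.1), a log2 ratio of 2.00 after 5 CPM was added to each library, as for each log2 ratio below. Mcm5 had 36 and 35 UMIs (ratio 5.18, 3.16 to 8.48, log2 ratio 1.86), Uhrf1 49 and 35 (ratio 3.80, 2.39 to 5.99, log2 ratio 1.57), and Mcm3 53 and 33 (log2 ratio 1.41). Pcna had 253 and 107 UMIs (60.5 and 136 CPM, ratio 2.25, 1.78 to 2.83). These 3 helicase genes, the clamp and Uhrf1 were thus higher in cKO. The mitotic members went in both directions. Mki67 had 176 and 51 UMIs (42.1 and 64.9 CPM, ratio 1.54, 1.11 to 2.12) and Top2a 324 and 86 (ratio 1.41, 1.10 to 1.80). Cdk1 had 86 and 18 (ratio 1.11, 0.631 to 1.87) and Ccnb1 55 and 10 (ratio 0.968, 0.440 to 1.92), so neither differed beyond counting error. The lowest were Ccnb2, with 88 and 3 UMIs (21.0 and 3.82 CPM, log2 ratio -1.56), Nusap1 with 119 and 8 (-1.14), Hmmr with 71 and 4 (-1.12) and Kif20a with 38 and 3 (-0.68), all genes of late G2 and mitosis.

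Of the 36 members with at least 10 CPM in cluster 1 in either library, 5 were past a 2-fold difference (a log2 ratio beyond 1) upward, all of them S-phase members, and 3 downward, all of them mitotic. Over all 9187 genes at that level 12.2% were past 2-fold upward and 5.5% downward, so the count of 5 of 36 is near the background. The median log2 ratio was 0.98 over 12 S-phase members and 0.12 over 22 mitotic members, beside 0.28 over all genes. Over the whole epithelium-like class 25 of 31 members at that level were past 2-fold upward and 0 downward, against 13.6% and 7.23% of 8677 genes. There Mcm5 (log2 ratio 2.62, 53 and 58 UMIs), Mcm6 (2.29, 77 and 53), Cdk1 (2.05, 105 and 52) and Stmn1 (1.99, 611 and 193) were highest. Mki67 (12.4 and 47.5 CPM, 1.59), Top2a (22.8 and 75.7 CPM, 1.54), Ccnb1 (3.34 and 14.8 CPM, 1.25) and Pcna (47.0 and 134 CPM, 1.42) were also higher. The lowest were Ccnb2 (-0.42), Kif20a (0.14), Bub1 (0.26) and Nusap1 (0.29). Without the clusters drawn over 90% from 1 library the class reduces to cluster 1, and the counts to 5 and 3. In cluster 1 the interferon list of 9 genes was at 1292 CPM in control and 102 CPM in cKO, and the dissociation list of 9 genes, Fos and heat shock genes among them, at 11096 and 6340 CPM. Their part in these results was not tested.

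Mitotic members were lower in cKO in T or NK cell-like cells. Their summed level was 1197 CPM in control and 489 CPM in cKO (ratio 0.409, 0.382 to 0.438), and without Cenpa the log2 ratio moved from -1.29 to -2.14. The S-phase members were at 597 and 628 CPM (ratio 1.05, 0.973 to 1.14), so they did not differ beyond counting error. Of 39 members with at least 10 CPM, 22 were past 2-fold downward, 21 of them mitotic and the other Rrm2, and 0 upward. Over all 8639 genes 2.69% were past 2-fold downward and 1.01% upward. The median log2 ratio was -1.33 over the 26 mitotic members and -0.25 over 11 S-phase members, beside 0.12 over all genes. Across the class the interferon list was at 812 and 68.6 CPM.

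Mki67 was the lowest member in T or NK cell-like cells, with 247 UMIs in 17 cells in control and 51 UMIs in 6 cells in cKO (152 and 17.2 CPM, log2 ratio -2.82). Cenpf had 84 and 22 UMIs (-2.19), Tpx2 64 and 16 (-2.09) and Ube2c 74 and 21 (-2.07). Top2a had 269 and 109 (165 and 36.7 CPM, -2.03), Cdk1 28 and 9 (-1.47) and Ccnb1 17 and 8 (-1.01). Mcm5 had 76 and 114 UMIs (46.7 and 38.3 CPM, ratio 0.821, 0.609 to 1.11). The highest were Pcna with 354 and 870 UMIs (218 and 293 CPM, 0.42), Mcm6 (0.23), Mcm7 (0.20) and Mcm4 (0.13), and of these the counting interval of the ratio excluded 1 for Pcna alone. Cenpa was at 283 and 282 CPM.

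After thinning, the share of cycling T or NK cell-like cells depended on Cenpa. With it 13 of 321 cells (4.05%, 2.17 to 6.83) were called in control and 22 of 713 (3.09%, 1.94 to 4.63) in cKO, a difference of -0.964 points (-3.97 to 1.47). Without it 11 (3.43%) and 7 (0.982%) were called. Without thinning, with Cenpa kept and 3 members asked for, 17 cells (5.30%, 3.11 to 8.34) and 18 cells (2.52%, 1.50 to 3.96) were called. The class medians were 4312 and 3647 UMIs. Of the 13 called cells in control 10 held at least 3 mitotic members after thinning, and of the 22 in cKO 4 did. Called cells of control had a median of 10653 UMIs and those of cKO 4690.

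Most of this lay in NK-like cluster 13, with 146 cells in control and 297 in cKO. There the mitotic members were at 1637 CPM in control and 638 CPM in cKO (ratio 0.390, 0.358 to 0.424), and at 1068 and 508 CPM after thinning, while S-phase members were at 650 and 621 CPM. Mki67 had 179 UMIs in 12 cells in control and 25 UMIs in 2 cells in cKO (204 and 18.0 CPM, log2 ratio -3.19). Birc5 had 41 and 5 UMIs (-2.59), Kif11 55 and 10 (-2.47) and Cenpf 62 and 12 (-2.47). Top2a had 191 and 68 UMIs (-2.05), Cdk1 21 and 3 (-2.02) and Ccnb1 11 and 6 (-0.91, a ratio whose interval of 0.104 to 1.01 includes 1). At the other end stood Pcna (181 and 381 UMIs, 0.40), Mcm6 (79 and 163, 0.36), Cenpa (318 and 552, 0.13) and Mcm4 (31 and 46, -0.08). Mcm5 had 53 and 57 UMIs (-0.51). Of 39 members, 25 were past 2-fold downward, 23 of them mitotic, beside 4.19% of 8469 genes, and 0 upward, beside 3.22%.

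Called cells in cluster 13 numbered 9 (6.16%, 2.86 to 11.4) in control and 12 (4.04%, 2.10 to 6.95) in cKO, a difference of -2.12 points (-7.69 to 2.28), and without Cenpa 8 (5.48%) and 2 (0.673%). Without thinning, with Cenpa kept and 3 members asked for, they numbered 13 (8.90%, 4.83 to 14.7) and 8 (2.69%, 1.17 to 5.24). The cluster medians were 5132 and 4059 UMIs. Here too a few cells carried the level: 5 cells held 50% of the mitotic UMIs in control and 24 cells in cKO, and 1 cKO cell of 30833 UMIs held 28.0%. The interferon list was at 919 and 78.5 CPM in this cluster and the dissociation list at 1012 and 1433 CPM, and their part in the result was not tested.

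Alpha beta T-like cluster 19 (78 and 120 cells) had mitotic members at 1147 and 648 CPM (ratio 0.565, 0.483 to 0.661) and S-phase members at 676 and 917 CPM (ratio 1.36, 1.15 to 1.61). Thinned, the mitotic level was 449 and 525 CPM, the other direction, and 2 cells held 50% of the mitotic UMIs in each library. Mki67 had 67 and 23 UMIs in 4 and 3 cells (log2 ratio -1.83), Cenpf -1.41, Top2a -1.28 and Ube2c -1.18. Mcm4 (0.76), Pcna (0.68), Mcm5 (0.55) and Mcm2 (0.53) were highest. Called cells numbered 4 (5.13%) and 6 (5.00%), 3 and 4 without Cenpa, and 4 and 7 without thinning. Its interferon list was at 453 and 96.5 CPM. Of 36 members at 10 CPM, 1 was past 2-fold upward and 7 downward, beside 6.68% and 8.49% of 8538 genes. In gamma delta T-like cluster 11 (97 and 296 cells) 0 and 4 cells were called, 0 and 1 without Cenpa, and 0 and 3 without thinning. Of 14 members there 0 were past 2-fold upward and 1 (Cdc20, 6 and 3 UMIs) downward, beside 4.74% and 2.51% of 8650 genes. The sum of the mitotic members there, 316 and 249 CPM, was mostly Cenpa (239 and 204 CPM). Interferon-response genes were there at 873 and 46.1 CPM.

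**Figure D3:**
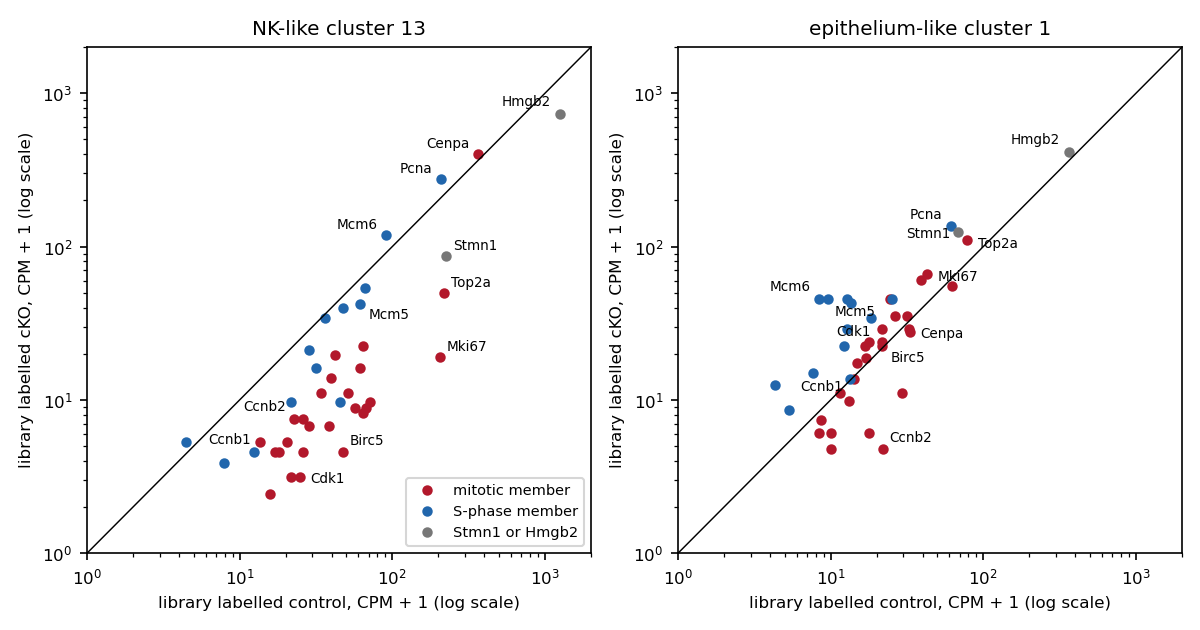
Level of each member in NK-like cluster 13 (left) and epithelium-like cluster 1 (right). Both axes are CPM + 1 on a log scale, the library labelled control on x and the library labelled cKO on y, each point is a member, and the line marks equal levels. In cluster 13 most mitotic members lie below the line (Mki67 at 204 and 18.0 CPM) while Pcna, Mcm6 and Cenpa lie on or above it, and in cluster 1 most S-phase members lie above it (Mcm6 at 7.41 and 44.5 CPM) and Ccnb2 below (21.0 and 3.82 CPM).

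Macrophage or monocyte-like cells, which formed cluster 3, had 7 called cells of 313 (2.24%, 0.904 to 4.55) in control and 0 of 227 in cKO, with a 95% upper limit of 1.61% (a count of 3 would be 1.32%). The difference was -2.24 points (-4.55 to -0.145). With another random draw of the thinning the counts were 4 and 0, a difference of -1.28 points whose interval (-3.24 to 0.58) includes 0, and unthinned they were 14 and 2. The mitotic members summed to 162 and 59.8 CPM (ratio 0.370, 0.295 to 0.460), and 1 cell held 44.8% of the control UMIs. S-phase members were at 389 and 474 CPM (ratio 1.22, 1.11 to 1.34). Of 8 members at 10 CPM, 0 were past 2-fold upward and 1 downward (Cenpa, 111 and 26 UMIs, log2 ratio -1.17), beside 1.32% and 2.56% of 7497 genes. Below that level Cenpf had 24 UMIs in 4 control cells and 0 in cKO (-1.47), Cenpe 23 and 1 (-1.27) and Tpx2 18 and 3 (-0.78). Mcm3, with 39 and 47 UMIs (14.3 and 27.8 CPM, 0.76), was highest, followed by Mcm7 (0.42). Mki67 did not follow the other mitotic members, at 46 UMIs in 16 cells in control and 30 UMIs in 12 cells in cKO (16.9 and 17.8 CPM). Top2a was at 11.8 and 5.33 CPM, Cdk1 at 3.31 and 1.18, Ccnb1 at 3.67 and 0.592, Mcm5 at 4.41 and 6.51, and Pcna at 328 and 394. The interferon list was at 10196 and 2449 CPM and the dissociation list at 3619 and 3723 CPM, whose part was not tested.

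In dendritic cell-like cells 2 of 159 (1.26%, 0.153 to 4.47) and 3 of 209 (1.44%, 0.297 to 4.14) were called, a difference of 0.178 points (-3.23 to 3.10). Unthinned, 10 (6.29%) and 11 (5.26%) were called. Mitotic members were at 270 and 222 CPM (ratio 0.822, 0.719 to 0.939), but after thinning at 189 and 234 CPM, the other direction, and 1 cell held 26.8% of the control UMIs. S-phase members were at 228 and 322 CPM (ratio 1.41, 1.24 to 1.61). Mki67 was found in 19 cells (11.9%) and 22 cells (10.5%), with 71 and 95 UMIs (40.8 and 49.5 CPM), before thinning, and after it in 3 and 11 cells. Mcm6 (8 and 23 UMIs, log2 ratio 0.82), Mcm2 (0.77), Mcm5 (16.1 and 27.1 CPM, 0.61) and Uhrf1 (0.53) were highest, and Nusap1 (24 and 7 UMIs, -1.12), Cdca8 (16 and 4 UMIs), Tpx2 (-0.75) and Top2a (35.7 and 23.5 CPM, -0.51) lowest of those with at least 20 UMIs. Ccnb1 had 8 and 0 UMIs, and Cdk1 was at 2.88 and 2.09, and Pcna at 125 and 169. Of 14 members 0 were past 2-fold upward and 1 downward, beside 3.83% and 4.05% of 7547 genes. Without cluster 4, which held 38 control cells and 1 cKO cell, Nusap1 was at 0.11 and Top2a at 0.94, the other direction. The interferon list was at 6397 and 324 CPM, and its part was not tested.

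Stromal cells held few dividing cells. In fibroblast-like cells 2 of 864 (0.231%, 0.0280 to 0.834) and 6 of 1367 (0.439%, 0.161 to 0.953) were called, a difference of 0.207 points (-0.456 to 0.760), and 4 of those 6 lay in cluster 17 (of 149 cells). Unthinned, 7 (0.810%) and 20 (1.46%) were called. The mitotic sum was 44.1 and 27.6 CPM, with 35.5% of the control UMIs in 1 cell, and thinned it was 44.0 and 39.5 CPM. Of 7 members at 10 CPM, none mitotic, 0 were past 2-fold in either direction, beside 1.62% upward and 0.894% downward of 8162 genes. The extremes were Ccnb1 (2 and 27 UMIs, 0.35), Mcm5 (31 and 84 UMIs, 0.30), Mcm2 (0.20) and Rrm2 (0.17), and Nusap1 (28 and 9 UMIs, -0.50), Top2a (39 and 24 UMIs, -0.48), Stmn1 (223 and 258 UMIs, -0.43) and Mki67 (26 and 12 UMIs, -0.42). Pcna was at 185 and 199 CPM, and Cdk1 had 7 and 10 UMIs. With the highest doublet scores removed Top2a was at 0.091. Fibroblast-like cells had the interferon list at 681 and 45.1 CPM.

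In smooth muscle-like cells, the contractile cells of the myometrium, 2 of 313 (0.639%, 0.0775 to 2.29) and 0 of 680 were called, and unthinned 2 and 3. Mitotic members were at 61.4 and 62.1 CPM (ratio 1.01, 0.737 to 1.40) and S-phase members at 365 and 427 CPM (ratio 1.17, 1.03 to 1.33). Mki67 had 0 UMIs in both libraries, Cdk1 1 and 0, Ccnb1 0 and 1, Top2a 2 and 12, and Mcm5 2 and 7. Pcna had 221 and 623 UMIs (234 and 298 CPM, 0.34). Of 8 members at 10 CPM 0 were past 2-fold, beside 3.87% upward and 2.05% downward of 8718 genes. The interferon list was at 97.4 and 23.4 CPM. Mcm6 (0.51), Pcna, Mcm7 (0.23) and Ccnb2 (0.16) were highest and Stmn1 (-0.38), Mcm4 (-0.29), Hmgb2 (-0.14) and Rrm1 (-0.12) lowest. At a median of 1899 and 2003.5 UMIs per cell, a dividing smooth muscle cell with few mitotic transcripts would often not be detectable. Of the smaller classes, B cell-like cells had 1 called cell of 24 in control and 0 of 29 in cKO and lymphatic endothelium-like cells 1 of 31 and 0 of 103. Granulocyte-like, mast cell-like and mesothelium-like cells and the unnamed cluster 24, led by Il5 and Gata3, had 0 in both libraries after thinning, at 5 to 82 cells each. Unthinned, 1 and 2 B cell-like, 1 and 3 lymphatic endothelium-like, 4 and 1 mesothelium-like and 0 and 1 mast cell-like cells were called. Granulocyte-like cells and cluster 24 stayed at 0.

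**Figure D4:**
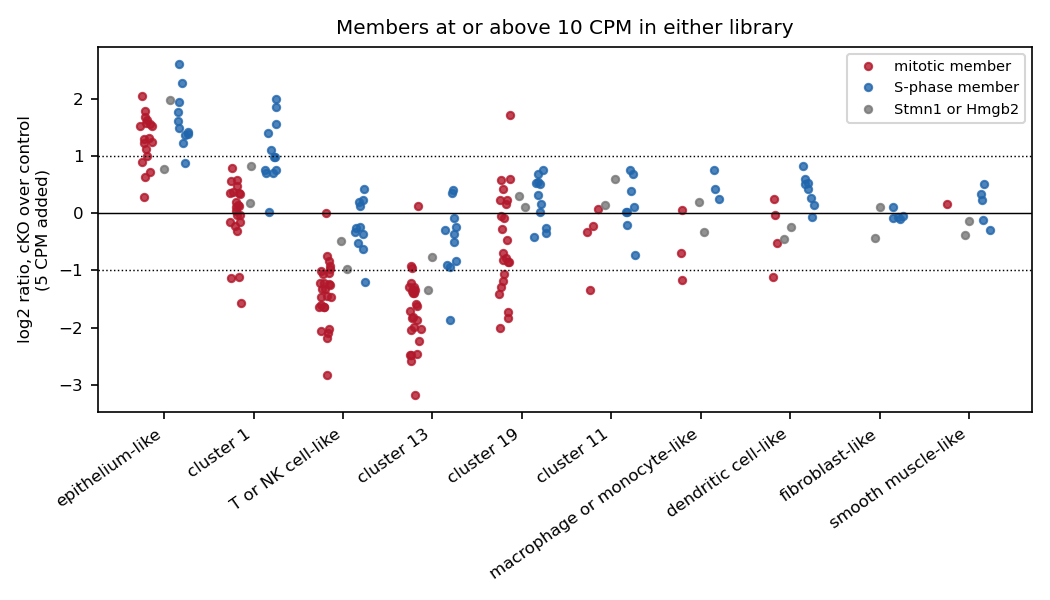
Log2 ratio of each member with at least 10 CPM in either library, by class and cluster. The y axis is log2((cKO CPM + 5) / (control CPM + 5)), the libraries named by their labels, points are members coloured as mitotic, S-phase or neither, and dotted lines mark 2-fold. Mitotic members lie lowest in cluster 13 (Mki67 at -3.19) and S-phase members highest in the epithelium-like class (Mcm5 at 2.62), where the class mixes clusters that cKO nearly lacked.

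Another 75 cell cycle genes outside the members were read in the same way. Those named in clusters 1 and 13 were chosen after their values were seen. In cluster 1, 22 of the 54 at 10 CPM were past 2-fold upward and 1 downward, beside 12.2% and 5.5% of all genes. By role these were 11 of 13 replication genes, 5 of 8 G1 cyclins and kinases, 3 of 5 transcription factors and 3 of 21 mitosis genes upward, the last near the share of all genes, and 1 of 7 inhibitors downward. Ccnd1 (cyclin D1, which acts in G1), with 287 and 235 UMIs (68.6 and 299 CPM, log2 ratio 2.05) and Ccnd2 (cyclin D2) with 56 and 43 (1.70) were among the highest. Cdkn1c (p57, an inhibitor of cyclin kinases; 90 and 5 UMIs, -1.22), Ckap2l (-0.98) and Mad2l1 (416 and 52 UMIs, -0.55) were lowest. Cdkn1a (p21) was at 495 and 484 CPM there. Over the whole class 29 of 49 were past 2-fold upward and 0 downward, beside 13.6% and 7.23% of all genes, with Dut (2.49), Chaf1a (1.92) and Cks1b (1.90) highest and Cdkn1a (719 and 448 CPM, -0.68), Wee1 (-0.42) and Cdkn1c (-0.40) lowest.

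In cluster 13, 26 of 59 were past 2-fold downward and 1 upward, beside 4.19% and 3.22% of all genes. Downward were 20 of 28 mitosis genes and 4 of 6 transcription factors but 1 of 13 replication genes. Clspn, for the replication checkpoint, had 32 and 5 UMIs (-2.27), Kif22 24 and 4 (-2.04) and Kif4 23 and 6 (-1.75). Cdkn1a was past 2-fold upward, with 71 and 235 UMIs (81.1 and 169 CPM, 1.02), followed by Slbp, which binds histone mRNA (0.69), and E2f4 (0.54). Over all T or NK cell-like cells 10 of 50 were past 2-fold downward and 0 upward, beside 2.69% and 1.01% of all genes, with Clspn (-1.71), Kif4 (-1.70) and Prc1 (-1.68) lowest and Slbp (0.56), Cdkn1a (0.54) and Cdt1 (0.50) highest.

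Genes that the call does not use were then read in the called cells, at 1000 UMIs per cell. Over all cells Stmn1 was at 575 CPM (365 to 863) in the called cells of control against 39.7 CPM in the others, and at 426 CPM (260 to 657) against 40.4 CPM in cKO. Hmgb2 was at 2800 against 203 CPM in control and at 1638 against 301 CPM in cKO. The S-phase members were at 1400 (1058 to 1818) against 263 CPM in control and at 681 (466 to 961) against 436 CPM in cKO. Over all cells, called cells thus held more of all 3 measures in both libraries. The gap in S-phase members was narrower in cKO, and 14 of the 40 called cells in control but 5 of the 47 in cKO also held at least 2 S-phase members. The called cells here include those called only with Cenpa. Without it 38 of the 40 and 32 of the 47 remained called, and these levels were not read without it. Called epithelium-like cells held Stmn1 at 167 CPM (2 UMIs in 12 cells) in control and 312 CPM (5 UMIs in 16 cells) in cKO, against 31.5 and 10.8 CPM in the others. Ccnd1 had 0 UMIs in these called cells in both libraries. In the others it had 59 UMIs in 1300 cells in control (45.4 CPM) and 27 UMIs in 93 cells in cKO (290 CPM). Called T or NK cell-like cells held Hmgb2 at 5692 CPM in control and 1682 CPM in cKO, against 523 and 703 CPM. Their S-phase members were at 1462 CPM (880 to 2282) against 477 CPM in control, but in cKO at 545 CPM (282 to 953) against 618 CPM, no higher than in the cells not called. Most of these cKO cells were called only with Cenpa: without it 7 of 22 remained called, against 11 of 13 in control.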

How the data were processed

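Single-cell libraries were made from whole uterus with a 3′ droplet kit, and 2 unfiltered matrices of UMI counts were deposited. Per the submitters' processing notes the authors counted reads with Cell Ranger 6.1.1 on mm10, while the deposited file headers name Cell Ranger 4. The deposited counts are whole numbers, not normalized. Here, a barcode was kept as a cell from 1000 UMIs and 500 genes upward, unless mitochondrial UMIs exceeded 20%. With scanpy 1.11.5 the cells of both libraries were scaled to 10000 UMIs and clustered on 2000 variable genes, members and other cell cycle genes left out (30 components, 15 neighbours, Leiden resolution 1.0). A cluster was named X-like where at least 3 markers of a type were each found in 25% of its cells. Scrublet marked 4 of 7076 cells, too few to have worked, so no doublets were removed and the 200 highest scores were removed as an alternative. Levels are UMIs divided by the class total (CPM). Log2 ratios add 5 CPM to each library, and genes with at least 10 CPM in either library were counted. Intervals are exact Poisson for levels, exact conditional for ratios, Clopper-Pearson for shares, and those limits combined by the square-and-add method for differences of shares. Scripts were tested on simulated data.

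The members and gene lists were chosen with earlier results of these data known. Named in each class were Mki67, Top2a, Cdk1, Ccnb1, Mcm5 and Pcna with the 4 highest and 4 lowest log2 ratios among members with at least 20 UMIs, over all cells the most abundant member of each role, and of the other cell cycle genes the 3 highest and 3 lowest in epithelium-like and T or NK cell-like cells. Clusters 1, 13 and 19 followed the same rule. Alternatives changed the scaling, pseudocount, minimum level, thinning, call, cell filters, clustering and doublets, subtracted free RNA, or left out clusters.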

Additional observations from a re-analysis of the deposited data

Results flagged for a closer look

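The summed log2 ratio of the mitotic members (cKO over control) was higher in epithelium-like cells than in T or NK cell-like cells by 2.95, than in macrophage or monocyte-like cells by 3.09, than in dendritic cell-like cells by 1.94 and than in fibroblast-like cells by 2.33, since it was above 0 in the first and below 0 in the others. With 1 library in each group these differences were not tested. In dendritic cell-like cells the direction turned when cells were thinned to 1000 UMIs, to 189 CPM in control and 234 CPM in cKO. Without the clusters drawn over 90% from a single library the epithelium-like value was 0.13 in place of 1.66.

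Empty droplets (barcodes of 10 to 100 UMIs) also held members: the 41 members were at 823.6 CPM (918 UMIs) in the library labelled cKO and at 585.6 CPM (1014 UMIs) in control. Pcna was at 253 and 131 CPM there, Hmgb2 at 274.5 and 199 CPM, and Mki67 at 7.18 and 12.1 CPM.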

How the results depend on the processing

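No paired analysis was possible because each group is 1 pooled library. Values are log2 ratios of summed CPM (cKO over control) unless named otherwise. The lower mitotic level in T or NK cell-like cells (-1.29) and cluster 13 (-1.36), and the higher share of called cells in cluster 1 (13.9 points), kept their direction under every alternative run. The mitotic level of cluster 1 (0.13) was below 0 under 3 alternatives and higher under another: -0.047 with free RNA subtracted, -0.49 with at most 10% mitochondrial UMIs, -0.13 with median of ratios scaling and 1.98 with cells thinned to 1000 UMIs. Other values of thinning to 1000 UMIs were, for mitotic members, 3.05 for epithelium-like, -0.78 for T or NK cell-like and -1.07 for cluster 13, for S-phase members 1.79 and 0.25 in the first 2, and for all 41 members 1.97 in epithelium-like, -0.14 in T or NK cell-like, 0.032 in the macrophage class, 0.46 in dendritic cell-like and 0.090 in fibroblast-like. Median of ratios scaling gave, in the same order, mitotic 1.46, -1.43 and -1.49, S-phase 1.86 and -0.067, and all members 1.29, -0.77, then -0.31 in dendritic cell-like, -0.11 in fibroblast-like and -0.17 in smooth muscle-like. Free RNA, estimated from fibroblast genes in T or NK cell-like cells, was 15.7% in control and 1.66% in cKO. Its subtraction gave mitotic -1.53 in cluster 13 and -1.46 in T or NK cell-like, S-phase 2.40 in epithelium-like, and all members 0.089 in fibroblast-like and -0.78 among T or NK cell-like cells. Without clusters drawn over 90% from a single library, epithelium-like values were 0.13 (mitotic), 1.33 (S-phase), 0.45 (all members), 5 members past 2-fold upward and 3 downward, and Ccnb1 -0.034, dendritic cell-like values 0.37, 0 downward, Top2a 0.94 and Nusap1 0.11, and the fibroblast-like value 0.11. With cell cycle genes left in the variable genes the values were -1.50 (mitotic) and -0.77 (all members) in T or NK cell-like, 0.12 in macrophage or monocyte-like and 0.10 in fibroblast-like. With the highest doublet scores removed they were 0.044 in the macrophage class, 0.19 in dendritic cell-like and 0.10 in fibroblast-like, and Top2a 0.091 in fibroblast-like. At most 10% mitochondrial UMIs gave mitotic 1.51 in epithelium-like, and resolution 2.0 gave 0.12 in fibroblast-like. Without Cenpa, chosen after seeing the data, mitotic values were -2.40 in cluster 13 and -2.14 for T or NK cell-like. Shares of called cells (cKO minus control) differed by 27.6 points in epithelium-like and 25.5 in cluster 1 without thinning. Thinned to 2000 UMIs they differed by 1.09 in smooth muscle-like, in the opposite direction to the main call (-0.639). By the call on S-phase members they differed by 5.58 in epithelium-like and 4.35 in cluster 1. That call went in the opposite direction to the mitotic call among T or NK cell-like cells (1.75 against -0.964) and in the macrophage class (0.528 against -2.24). Members past 2-fold downward numbered 13 in T or NK cell-like, 1 in cluster 1, and 0 in both dendritic cell-like cells and the macrophage class with 10 CPM added, 2 in the macrophage class with 1 CPM added (and 1 upward in dendritic cell-like), and 4 in the macrophage class and 2 in dendritic cell-like with no minimum level. The cause was not tested for any of these. Of the values of single members, 468 stayed the same, 73 moved and 4 reversed. Of the 6 classes compared, smooth muscle-like cells had the lowest median depth.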
